A study of Mus musculus with 56 samples.

Results

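The Frizzled receptors are the cell-surface receptors for Wnt proteins, and mice carry them as Fzd1 to Fzd10. All 10 genes were found by symbol in the deposited expression table, out of 20314 genes in all, and 9 of them passed the filter for low values. The exception was Fzd10, with 2 reads in all 56 libraries together and 0 reads in 54 of them. The members were taken by name as a gene family.

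A Frizzled protein crosses the membrane as a bundle of helices and holds the Wnt ligand in a cysteine-rich domain outside the cell. Together with the co-receptors Lrp5 and Lrp6 it recruits Dishevelled proteins, which stabilizes β-catenin and lets it act with TCF/LEF factors in the nucleus. Some Frizzled receptors also serve planar cell polarity and other β-catenin-independent routes, and in the mammary gland Wnt signaling is known for its part in ductal growth and stem cell maintenance. By sequence the family falls into Fzd1, Fzd2 and Fzd7, then Fzd5 and Fzd8, then Fzd4, Fzd9 and Fzd10, and finally Fzd3 and Fzd6, which is the order used here.

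The study asked how mutant forms of β-catenin (Ctnnb1) alter the response of breast cancer cells to Wnt3a and TGFβ. Its cells were lines from mammary tumors of female MMTV-PyMT mice on the FVB/N background, in which the mammary tumor virus promoter drives the polyoma middle T antigen. There were 7 β-catenin genotypes: fl/fl (floxed alleles without a mutation, the control), D164A/fl, D164A/-, ΔC/fl, ΔC/-, dm/fl and dm/-. D164A abolishes binding of Bcl9 and Bcl9L, whereas ΔC and dm are given here as the sample titles write them. In the lines written "/fl" the mutant allele stood beside a floxed one, and in the lines written "/-" the floxed allele had been removed with an adenovirus carrying Cre and GFP followed by sorting for GFP. Each line was kept untreated or given 100 ng/ml Wnt3a for 3 days, and separately kept untreated or given 2 ng/ml TGFβ for 4 days. Each of these 28 conditions had 2 replicates, and whether the replicates were separate cultures or separate lines is not stated in the labels. The study's methods call them biological duplicates without saying what was duplicated. Each genotype is known here through its own line or lines, so that genotype and line cannot be told apart, and the labels do not say which of the other lines met the control virus with GFP alone that the methods also describe.

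Library depth ran from 22.4 to 33.7 M (mega) reads in genes with a median of 26.8 M, so that 3 reads corresponded to between 0.0917 and 0.146 CPM, a gene's reads per 1000000 reads of the scaled library. Axin2, a direct β-catenin target, rose with Wnt3a in 6 genotypes by 2.84 to 5.98 on the log2 scale and differed by 0.06 in dm/- (adjusted p = 1, limma). Ctnnb1 itself lay between 531 and 3188 CPM and passed no fold threshold between the "/-" and "/fl" lines, although a gene-level count does not show which allele was read. All 6 epithelial markers exceeded 1 CPM in every untreated genotype. The summed level of 7 fibroblast or mesenchymal markers, Vim among them, ranged from 7.15 to 12.5 CPM in untreated dm/- cells up to 1497 to 3764 CPM in untreated dm/fl cells, while Thy1 never exceeded 0.116 CPM. Endothelial markers summed to at most 1.55 CPM in untreated cells, but to 34.1 to 35.1 CPM in dm/fl after TGFβ. The summed level of 3 blood markers, of which 1 exceeded 1 CPM, was 20.9 to 62.2 CPM in untreated dm/- cells. It reached 79.4 CPM in untreated ΔC/- cells, against 1.69 to 5.13 CPM in untreated dm/fl and 1.69 to 3.18 CPM in untreated fl/fl. The part of these blood and endothelial markers in the Frizzled differences was not tested. In untreated replicate 1 of dm/fl in the Wnt3a experiment, expression deviations followed the GC content of genes more closely than in any other library (Spearman rho across genes 0.80). The next highest value was 0.71, in treated replicate 2 of dm/- in that experiment.

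Promoter sequences are shown for Fzd1, Fzd4 and Fzd7, the members whose levels separated the lines most often besides Fzd2. Fzd1 (Entrez 14362) is a single-exon gene on the minus strand of chr5:4753839-4758216, Fzd7 (Entrez 14369) a single-exon gene on the plus strand of chr1:59482147-59486955, and Fzd4 (Entrez 14366) a gene of 2 exons on the plus strand of chr7:89404366-89410110. The sequences are the 250 bases before each start from RefSeq, build GRCm38.p6, written 5′ to 3′ on the strand of the gene. Capitals mark matches on either strand to 3 motifs, with overlapping matches counted: CTTTGA or TCAAAG, a core letter string of TCF/LEF sites, CAGAC or GTCTG, a SMAD string, and GGGCGG or CCGCCC, the GC box. The stretches are chr5:4758217-4758466 (minus), chr7:89404116-89404365 (plus) and chr1:59481897-59482146 (plus).
Fzd1: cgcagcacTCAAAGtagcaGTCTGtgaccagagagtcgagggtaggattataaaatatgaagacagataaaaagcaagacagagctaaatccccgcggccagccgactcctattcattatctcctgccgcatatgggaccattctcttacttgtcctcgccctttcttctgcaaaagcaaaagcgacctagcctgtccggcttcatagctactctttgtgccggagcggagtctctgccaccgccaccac
Fzd4: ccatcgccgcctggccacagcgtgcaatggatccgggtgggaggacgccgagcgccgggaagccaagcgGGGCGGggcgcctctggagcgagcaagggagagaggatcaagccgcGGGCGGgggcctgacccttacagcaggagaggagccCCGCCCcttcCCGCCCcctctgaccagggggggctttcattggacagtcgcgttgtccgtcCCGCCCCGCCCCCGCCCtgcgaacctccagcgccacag
Fzd7: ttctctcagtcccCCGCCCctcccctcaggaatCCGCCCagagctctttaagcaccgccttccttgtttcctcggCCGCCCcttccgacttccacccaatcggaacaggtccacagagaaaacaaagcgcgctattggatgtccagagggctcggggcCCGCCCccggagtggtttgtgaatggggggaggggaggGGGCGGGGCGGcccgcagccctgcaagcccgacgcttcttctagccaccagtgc
The Fzd1 stretch held 1 TCF/LEF string, 242 bases before the start, 1 SMAD string and no GC box, and its GC content was 51.2%. By contrast, the Fzd4 stretch held 7 GC boxes at 72.8% GC, the Fzd7 stretch held 6 at 65.2% GC, and neither held the TCF/LEF or SMAD string. Over all 32851 promoters in the table, 13.8% held the TCF/LEF string, 42.2% the SMAD string and 32.7% the GC box. Among the 6 members with a promoter in the table, Fzd1 was the only one with the TCF/LEF string. A match describes the letters in this window and does not show a binding site.

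To compare receptors with each other, CPM was divided by exon length in kb, which gave levels per length. Untreated cells of each line were taken from both experiments (n = 4). The summed level of the family was 50.5 ± 5.18 CPM per kb in fl/fl (SD, n = 4), the line without a mutation. It was higher in both D164A lines, at 90.5 ± 23.1 CPM per kb in D164A/fl and 91.3 ± 7.17 in D164A/-, and none of these 8 libraries overlapped fl/fl. The sum was lowest in dm/-, at 29.8 ± 4.17 CPM per kb, with no overlap with dm/fl at 57.4 ± 7.45. ΔC/fl at 65.6 ± 9.46 and ΔC/- at 61.1 ± 7.99 CPM per kb lay between and overlapped fl/fl.

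By mean, Fzd6 and Fzd7 made up most of the family in every line. Their joint share of the summed level per length ran from 58.7% ± 12.4 in dm/fl to 75.9% ± 2.47 in fl/fl (SD, n = 4). Fzd6, a receptor best known from planar cell polarity and hair patterning, came first by mean in 6 lines, for example at 28.5 ± 3.69 CPM per kb in fl/fl against 9.72 ± 3.37 for Fzd7. In untreated replicate 1 of dm/fl in the Wnt3a experiment, however, Fzd2 came before it. That library held 73.9 CPM of Fzd2 and 73.2 CPM of Fzd6, and the exons of Fzd2 are shorter (3.66 against 4.82 kb). In D164A/- the order turned, with Fzd7 at 36.9 ± 2.07 and Fzd6 at 30.6 ± 5.30 CPM per kb, but the ranges of the 4 libraries overlapped, as they did in D164A/fl. Fzd7, a receptor often studied in mammary stem and basal cells, was second in the other 6 lines, although in dm/fl (10.2 ± 2.02 CPM per kb) its range overlapped that of Fzd2.

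The third place differed from line to line. It was held by Fzd5 in fl/fl (3.75 ± 0.547 CPM per kb) and in D164A/fl (6.52 ± 2.54), by Fzd4 in D164A/- (7.96 ± 1.73), by Fzd1 in ΔC/- (5.99 ± 0.568) and by Fzd2 in ΔC/fl (7.28 ± 2.29), dm/fl (9.45 ± 7.40) and dm/- (2.60 ± 0.728). Of these, Fzd4 in D164A/- and Fzd1 in ΔC/- did not overlap the receptor placed next. In dm/- Fzd2 and Fzd5 (2.57 ± 0.538) were level within their spread. Fzd9 was ninth in every line, at 0.0933 to 0.823 CPM per kb, and Fzd10 was last at 0. With the RefSeq length in place of the exon union for the members with 1 exon, a choice made after seeing the data, Fzd8 moved up in some lines, Fzd1 in ΔC/- overlapped the next receptor, and Fzd6 and Fzd7 stayed in front.

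**Figure D1:**
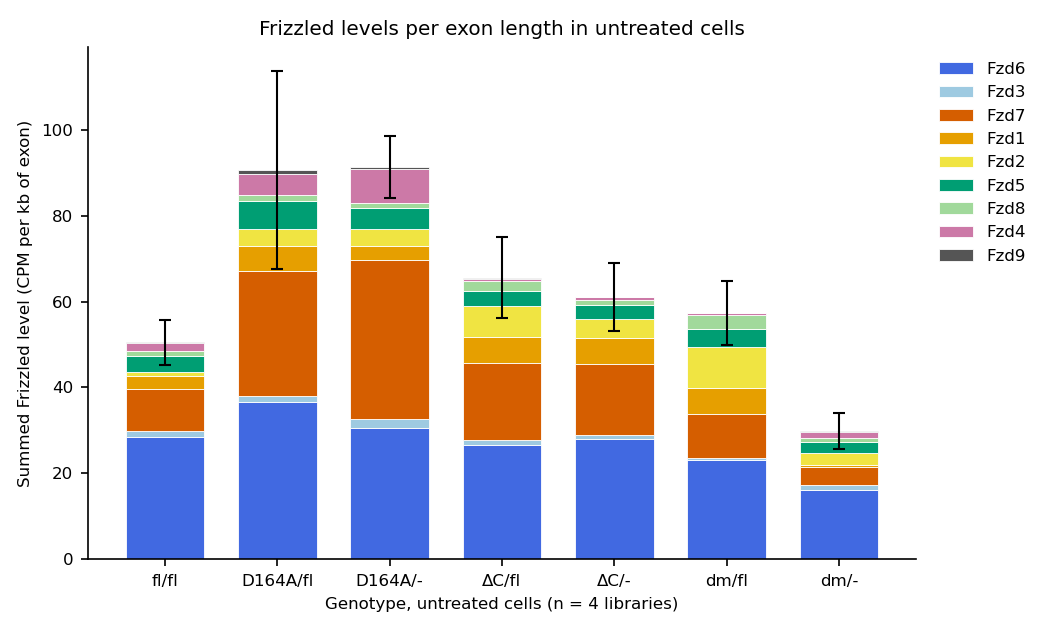
Stacked mean levels of the Frizzled receptors in untreated cells of each line, in CPM per kb of exon (n = 4 libraries per line), with the SD of the summed level as an error bar. Fzd6 and Fzd7 fill most of each bar, and the sum ranges from 29.8 CPM per kb in dm/- to 91.3 in D164A/-.

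The first comparison asked which receptors differed between untreated lines. Over all 7 genotypes 9 of 9 members differed in the Wnt3a experiment (F test in limma, 57.3% of all genes) and 7 of 9 in the TGFβ experiment (62.4%), where Fzd3 (adjusted p = 0.0619) and Fzd9 (adjusted p = 0.236) did not pass. Each mutant line was then set against fl/fl. Over 9 members, 6 lines and 2 experiments, 36 of 108 member comparisons passed the threshold of an adjusted p of at most 0.05 and a log2 difference of at least 1 (limma over 13754 genes), which is 33.3%. Across all genes 18.3% of such comparisons passed. Of the 36, 27 were higher and 9 lower than in fl/fl, where 9.75% of all comparisons were called higher and 8.52% lower. The Wnt3a experiment held 24 and the TGFβ experiment 12, and within an experiment all lines were set against the same 2 fl/fl libraries. In the Wnt3a experiment these differences also followed the GC content of genes (Spearman rho across genes 0.36 to 0.74 per comparison, against -0.42 to 0.10 in the TGFβ experiment), and 8 of the 24 calls were lost when that trend was removed. In bulk RNA, fewer cells of a type and less RNA per cell cannot be told apart.

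Fzd2, which is known to signal through both β-catenin and Ca2+ routes, was higher than in fl/fl in 9 of 12 comparisons, the most of any member in that direction. Untreated fl/fl cells held 1.96 and 1.57 CPM in the Wnt3a experiment, whereas D164A/- held 12.7 and 21.7, ΔC/fl 14.5 and 30.2, ΔC/- 10.8 and 16.2, dm/fl 73.9 and 13.0, dm/- 7.59 and 8.98, and D164A/fl 10.5 and 37.7 CPM. All 12 mutant libraries lay above both fl/fl libraries, with log2 differences from 1.75 (SE 0.58, dm/-, adjusted p = 0.0271, limma) to 3.55 (SE 0.58, dm/fl, adjusted p = 1.81e-05). Without dm/fl replicate 1 the dm/fl difference was 2.34, and without dm/fl replicate 2 it was 4.76. Fitted on only the samples compared, the dm/fl call was lost (adjusted p = 0.292, limma), as were those of D164A/fl, ΔC/fl and ΔC/-. In the TGFβ experiment fl/fl held 3.06 and 5.95 CPM and Fzd2 passed in ΔC/fl (2.58, adjusted p = 0.00106), ΔC/- (1.88, adjusted p = 0.0129) and dm/fl (2.32, adjusted p = 0.00305), but not in the D164A lines or dm/-. The dm/- call was lost without any one of its 4 libraries (1.64 to 1.86). The ΔC/- call was lost without fl/fl replicate 1 (1.50), ΔC/- replicate 1 (1.90) or ΔC/- replicate 2 (1.87), and the dm/fl call in the TGFβ experiment without fl/fl replicate 1 (1.93). The summed mesenchymal markers in untreated cells were 48.9 to 132 CPM in fl/fl, 1153 to 3268 in ΔC/fl and 1497 to 3764 in dm/fl. They were 28.1 to 138 CPM in ΔC/-, 7.15 to 12.5 in dm/-, 87.2 to 616 in D164A/fl and 417 to 455 in D164A/-. Their part in the Fzd2 differences was not tested.

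Fzd7 was higher in the D164A lines of the Wnt3a experiment, with 141 and 237 CPM in D164A/fl and 154 and 167 CPM in D164A/- against 31.3 and 32.5 CPM in fl/fl. The groups did not overlap, and the log2 differences were 2.49 (SE 0.27, adjusted p = 5.6e-09, limma) and 2.30 (SE 0.27, adjusted p = 2.92e-08). In the TGFβ experiment D164A/- was again higher, at 175 and 172 CPM against 48.8 and 63.6 in fl/fl (1.62, adjusted p = 1.27e-05), whereas D164A/fl at 57.0 and 92.2 CPM overlapped fl/fl. The summed level of 4 basal or myoepithelial markers, of which 3 exceeded 1 CPM in these lines, was 884 to 3347 CPM in untreated D164A/fl of the Wnt3a experiment and 240 to 537 CPM in the TGFβ experiment. In D164A/- it was 250 to 622 and 228 to 277 CPM, and in fl/fl 306 to 348 and 668 to 671 CPM. The part of these markers in the Fzd7 differences was not tested. ΔC/fl and ΔC/- passed in the Wnt3a experiment only (1.26 and 1.24), and the ΔC/fl call was lost without its replicate 2 (0.99) and after removal of the GC trend. Fzd7 was lower than in fl/fl in dm/- of the TGFβ experiment, at 18.0 and 20.9 CPM (-1.48, adjusted p = 7.92e-05).

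Fzd1 set dm/- apart. In the Wnt3a experiment untreated dm/- cells held 2.25 and 0.514 CPM of Fzd1 against 9.62 and 9.78 in fl/fl, and in the TGFβ experiment 3.54 and 1.66 against 19.2 and 13.0. The groups did not overlap in either experiment, and the log2 differences were -2.27 (SE 0.31, adjusted p = 8.03e-07, limma) and -2.27 (SE 0.31, adjusted p = 6.85e-07). Fzd1 was higher than fl/fl in the Wnt3a experiment in D164A/fl (26.1 and 38.5 CPM, 1.61, adjusted p = 0.000122), ΔC/fl (20.4 and 25.4 CPM, 1.15), ΔC/- (22.0 and 25.7 CPM, 1.21) and dm/fl (32.7 and 19.1 CPM, 1.28). None of these 4 passed in the TGFβ experiment, where fl/fl itself was higher. The ΔC/fl call was lost without fl/fl replicate 1 (1.14, adjusted p = 0.0529) or ΔC/fl replicate 2 (1.00) and the dm/fl call without dm/fl replicate 1 (0.91). The calls in ΔC/fl, ΔC/- and dm/fl were also lost when the GC trend was removed.

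Fzd4, the receptor for Norrin in retinal vessels, moved in opposite directions in different lines, higher in both D164A lines and lower in ΔC and dm/fl lines. Untreated D164A/- held 64.2 and 63.0 CPM and then 43.8 and 43.1 CPM in the Wnt3a and TGFβ experiments, while fl/fl had 15.5 and 9.20 CPM and then 14.5 and 12.5 CPM. No D164A/- library overlapped fl/fl, and the log2 differences were 2.32 (SE 0.41, adjusted p = 4.73e-05, limma) and 1.62 (SE 0.41, adjusted p = 0.00297). dm/fl lay at the other end with 1.81 and 2.28 CPM in the Wnt3a experiment (-2.09, adjusted p = 0.000229) and 5.25 and 2.68 in the TGFβ experiment (-1.59, adjusted p = 0.00409). ΔC/- in the TGFβ experiment held 4.08 and 4.18 CPM (-1.50, adjusted p = 0.00561), all below fl/fl. The dm/fl call in the TGFβ experiment was lost without dm/fl replicate 2 (-1.21). The remaining 4 Fzd4 calls, D164A/fl (1.29 and 1.26) and ΔC/fl (-1.57 and -1.20) in both experiments, were each lost without some library. For D164A/fl these were fl/fl replicate 2 (0.95) or D164A/fl replicate 1 (0.72) in the Wnt3a experiment and any of the 4 libraries in the TGFβ experiment (1.10 to 1.42). For ΔC/fl they were fl/fl replicate 1 (-1.23) or ΔC/fl replicate 2 (-1.39) in the Wnt3a experiment and any of the 4 libraries in the TGFβ experiment (-1.49 to -0.91).

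Few of the other members differed from fl/fl. Fzd8, a receptor close to Fzd5, was higher in dm/fl in both experiments, at 27.8 and 12.2 CPM against 6.31 and 5.52 (1.50, adjusted p = 0.00196, limma) and at 21.3 and 18.7 CPM against 7.37 and 9.13 (1.19, adjusted p = 0.0156). The groups did not overlap, but the first call was lost without dm/fl replicate 1 (0.93) and the second without fl/fl replicate 1 (1.05), dm/fl replicate 1 (1.10) or dm/fl replicate 2 (1.28). Fzd9 was higher in D164A/fl (1.89 and 4.18 CPM, 1.78) and D164A/- (0.875 and 1.82 CPM, 1.03) of the Wnt3a experiment, near the low end of what was counted. The D164A/- call was lost without fl/fl replicate 1 (0.99) or D164A/- replicate 2 (0.74), and both were lost when the GC trend was removed. Fzd5 passed in D164A/fl alone, in the Wnt3a experiment (71.4 and 36.1 against 28.8 and 21.0 CPM, 1.02), and not without fl/fl replicate 2 (0.80) or D164A/fl replicate 1 (0.54), nor after removal of the GC trend. Fzd3, which guides axons and planar polarity, was lower in dm/fl of the Wnt3a experiment mainly through replicate 1, with 0.953 CPM beside 10.9 in the other replicate and 17.2 and 16.0 in fl/fl (-1.87, or -0.56 without replicate 1 and -3.17 without the other replicate). Fzd6 passed in none of its 12 comparisons by limma or by edgeR, and its nearest values were in dm/-, at 79.8 and 75.9 against 140 and 141 CPM (-0.85, adjusted p = 0.0671) and at 95.1 and 57.8 against 155 and 113 CPM (-0.83, adjusted p = 0.0891).

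**Figure D2:**
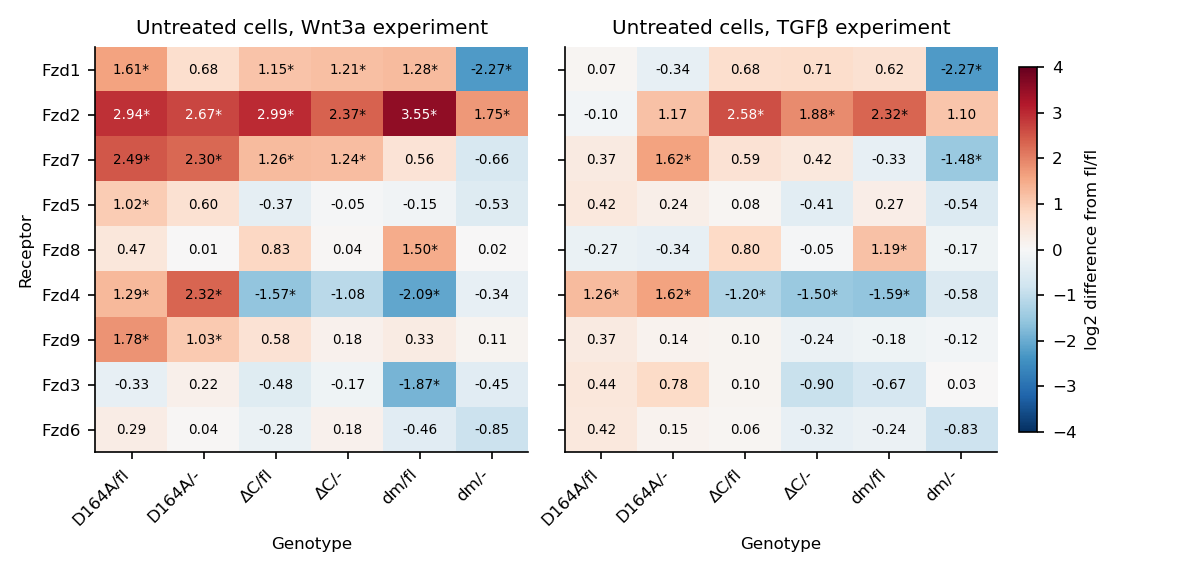
Log2 differences of each member between the untreated mutant lines and untreated fl/fl, by experiment, as colors with the value in each cell, where an asterisk marks values past both thresholds. The Fzd2 row is positive in all lines of the Wnt3a experiment and the Fzd4 row splits between the D164A lines and the ΔC and dm/fl lines.

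The second comparison asked what differed between lines that had lost the floxed allele and those that kept it. Among untreated cells 10 of 54 member comparisons passed, or 18.5% against 12.1% over all genes, with 3 higher and 7 lower in the "/-" line (5.3% and 6.78% over all genes). Of the 10, 9 were between dm/- and dm/fl, 6 in the Wnt3a experiment (16.5% of all genes) and 3 in the TGFβ experiment (16.1%), and none between ΔC/- and ΔC/fl (limma, 2 at an unadjusted p under 0.05, edgeR 0). Fzd1 was lower in dm/- in both experiments, with 2.25 and 0.514 CPM against 32.7 and 19.1 in dm/fl, and 3.54 and 1.66 CPM against 28.5 and 21.6. The libraries did not overlap, and the log2 differences were -3.55 (SE 0.31, adjusted p = 9.68e-11, limma) and -2.89 (SE 0.31, adjusted p = 5.25e-09). Fitted on only the samples compared, the Fzd1 call of the Wnt3a experiment was lost (adjusted p = 0.167, limma). So were the other dm calls of that experiment, whereas the calls of the TGFβ experiment were kept.

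Fzd7 was likewise lower, at 21.0 and 18.9 CPM in dm/- against 59.3 and 37.8 in dm/fl of the Wnt3a experiment (-1.21, adjusted p = 0.000955, limma) and at 18.0 and 20.9 against 44.6 and 43.8 of the TGFβ experiment (-1.15, adjusted p = 0.00146). The first of these was lost without dm/fl replicate 1 (-0.89). Fzd8 was also lower in dm/- in both experiments (-1.48, adjusted p = 0.00282, and -1.36, adjusted p = 0.00556), and it was lost without dm/fl replicate 1 (-0.91) or dm/- replicate 2 (-1.17) in the Wnt3a experiment and without dm/fl replicate 1 (-1.27) or dm/- replicate 2 (-1.13) in the TGFβ experiment. Fzd2 (-1.81), Fzd3 (1.42) and Fzd4 (1.75, adjusted p = 0.00185) passed in the Wnt3a experiment alone. Without dm/fl replicate 1 the first pair came to -0.59 and 0.12, without dm/fl replicate 2 to -3.02 and 2.73, they were also lost without either dm/- replicate, and Fzd4 was lost without dm/- replicate 1 (1.34). The last of the 10, and the 1 member called between the D164A lines of the TGFβ experiment (16.5% of all genes), was Fzd7, at 175 and 172 CPM in D164A/- against 57.0 and 92.2 in D164A/fl of the TGFβ experiment (1.25, adjusted p = 0.000623, or 0.91 without D164A/fl replicate 1). In the Wnt3a experiment the same lines overlapped.

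The third comparison asked how the receptors responded to Wnt3a. Only 3 of 63 member comparisons passed, or 4.76% against 0.862% over all genes, and all 3 were in D164A/fl, where 4.15% of all genes passed. Across genes, the Wnt3a response followed GC content in fl/fl (Spearman rho 0.81), ΔC/- (0.84) and dm/fl (-0.82), against 0 in D164A/fl. Fzd1 held 26.1 and 38.5 CPM in untreated D164A/fl and 84.3 and 72.0 CPM after Wnt3a, without overlap (1.27, SE 0.31, adjusted p = 0.00709, limma). Fzd4 went from 46.0 and 20.4 to 10.7 and 11.2 CPM (-1.41, SE 0.41, adjusted p = 0.0364). Fzd9 went from 1.89 and 4.18 to 0.883 and 0.912 CPM (-1.03, SE 0.24, adjusted p = 0.00444). The treated and untreated libraries of all 3 were separate. None of the 3 passed in edgeR on the recovered reads, where Fzd1 had the same fold (1.27, adjusted p = 0.0605). Fzd1 was lost without untreated replicate 1 (1.00) or treated replicate 1 (1.16), Fzd4 without untreated replicate 1 (-0.84), treated replicate 1 (-1.38) or treated replicate 2 (-1.44), and Fzd9 without untreated replicate 2 (-0.61) or treated replicate 1 (-1.02) and when the GC trend was removed (-0.76).

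Fzd1 passed in no other line, with for example 13.9 and 18.7 CPM before and 15.1 and 23.5 CPM after Wnt3a in D164A/-. Fzd4 in D164A/- went from 64.2 and 63.0 to 33.4 and 25.5 CPM without overlap, yet did not pass (-1.10, adjusted p = 0.596, limma). Fzd7 in dm/fl, at 59.3 and 37.8 against 27.4 and 22.2 CPM, did not pass either (-0.92, adjusted p = 0.134). Averaged over the 7 genotypes no member passed in limma or edgeR, where 0.494% of all genes did, although 3 had an unadjusted p under 0.05: Fzd5 (-0.31), Fzd9 (-0.23) and Fzd4 (-0.37). Over the genotypes, the spread of the Wnt3a response passed for 0 of 9 members in limma and in edgeR (4 at an unadjusted p under 0.05), against 2.39% of all genes. With same-numbered replicates blocked in limma it passed for 3 members, and the share of all genes was not computed for that fit. In dm/-, the line in which Axin2 did not rise, no member and none of the 13754 genes passed (limma, 0 members at an unadjusted p under 0.05, edgeR 0).

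**Figure D3:**
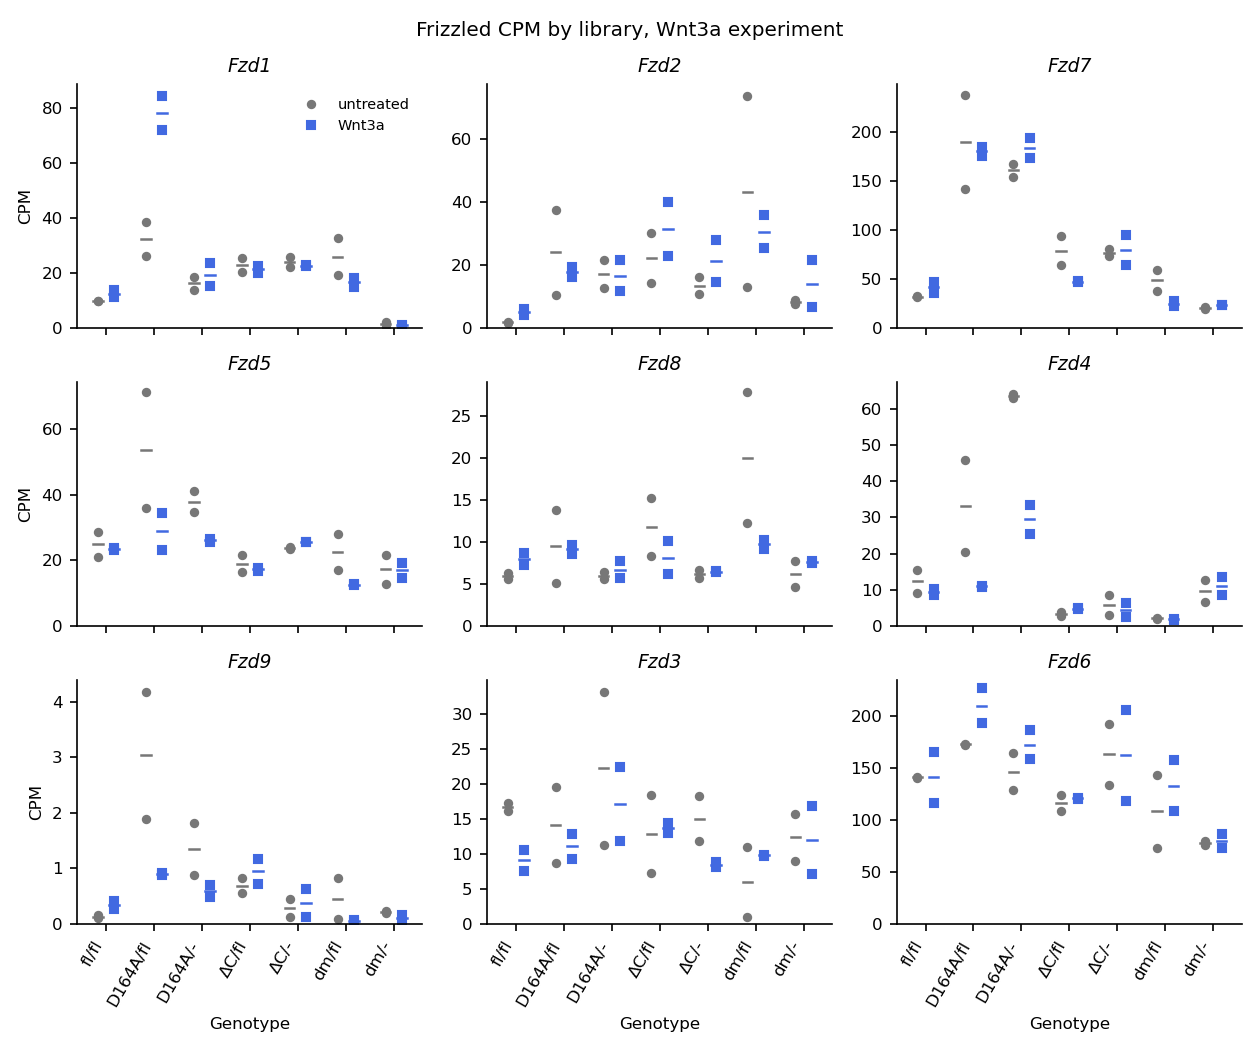
CPM of the 9 members above the filter in the Wnt3a experiment, with circles for untreated and squares for treated libraries, dashes for means and one column per line (n = 2 each, linear axes). In most panels the 2 kinds of points lie together, and D164A/fl separates for Fzd1, Fzd4 and Fzd9.

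The next comparison asked how the receptors responded to TGFβ. Here 8 of 63 member comparisons passed, or 12.7% against 6.35% over all genes, and they belonged to Fzd1, Fzd2, Fzd7 and Fzd5. By line there were 2 calls in fl/fl, where 6.25% of all genes passed, 1 in ΔC/fl (7.74%), 1 in ΔC/- (6.55%), 1 in dm/fl (10.3%) and 3 in dm/- (6.12%). Fzd7 responded in opposite directions. In dm/- it rose from 18.0 and 20.9 to 85.0 and 99.8 CPM (2.19, SE 0.27, adjusted p = 4.27e-07, limma), which no left-out library and no other setting undid. In ΔC/fl it fell from 82.5 and 85.7 to 30.7 and 28.4 CPM (-1.48, SE 0.27, adjusted p = 0.000177). No left-out library undid this call, but it was lost when fitted on only the samples compared (adjusted p = 0.0573, limma). In fl/fl Fzd7 fell from 48.8 and 63.6 to 24.0 and 29.1 CPM (-1.05, SE 0.27, adjusted p = 0.00887). None of these groups overlapped, but the fl/fl call was lost without treated replicate 1 (-0.92) or untreated replicate 2 (-0.86). It was also lost on only the samples compared (adjusted p = 0.114, limma). In dm/fl it went from 44.6 and 43.8 to 28.8 and 19.7 CPM, under the fold threshold (-0.87, adjusted p = 0.0256), and the remaining lines gave -0.45 in D164A/-, -0.40 in ΔC/- and -0.09 in D164A/fl. Treated libraries also lay below the untreated ones without overlap in dm/fl, D164A/- and ΔC/-.

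The difference between these responses was tested directly. The TGFβ response of Fzd7 in dm/- minus that in dm/fl was 3.06 on the log2 scale (95% confidence interval 2.29 to 3.83, adjusted p = 7.88e-07, limma). It was 1 of 54 member comparisons of this kind and the 1 that passed, or 1.85% against 2.14% over all genes, and against 7.31% of genes for TGFβ in the dm pair. Across all 7 genotypes the TGFβ response differed for Fzd7 (adjusted p = 1.64e-07, F test in limma) and Fzd5 (adjusted p = 0.00206), 2 of 9 members where 18.3% of all genes passed. With same-numbered replicates blocked, 4 of the 54 comparisons and 6 of the 9 members passed, and shares of all genes were not computed for that fit. After TGFβ, the Fzd7 level of dm/- lay above both treated libraries in fl/fl, D164A/fl, ΔC/fl, ΔC/- and dm/fl, having been the lowest before. The summed basal or myoepithelial markers moved alongside, from 50.7 to 123 CPM up to 248 to 521 CPM in dm/-, from 301 to 583 down to 78.7 to 229 CPM in ΔC/fl, from 668 to 671 down to 156 to 204 CPM in fl/fl and from 426 to 552 down to 215 to 410 CPM in dm/fl. In dm/- 2 of the 4 exceeded 1 CPM before TGFβ and 4 of 4 after it, and their part in the Fzd7 response was not tested.

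Fzd1 was higher after TGFβ in 6 of 7 lines by mean and passed in 2 of them. In fl/fl it rose from 19.2 and 13.0 to 41.5 and 31.8 CPM (1.15, SE 0.31, adjusted p = 0.0131, limma) and in dm/- from 3.54 and 1.66 to 7.38 and 8.43 CPM (1.35, SE 0.31, adjusted p = 0.00328), without overlap. Even so, Fzd1 in treated dm/- cells remained below every untreated library of the other lines in that experiment. The fl/fl call was lost without treated replicate 1 (0.97) or untreated replicate 2 (0.89) and the dm/- call without untreated replicate 2 (0.97) or treated replicate 2 (1.27). ΔC/fl was the exception in direction, with 29.9 and 22.3 against 24.1 and 21.4 CPM. Averaged over genotypes the Fzd1 response was 0.62 (adjusted p = 7.94e-05), under the fold threshold.

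Fzd2 was the only member to pass in the mean TGFβ response, at 1.11 (SE 0.22, adjusted p = 0.000182, limma), where 4.88% of all genes passed. Its estimate was positive in all 7 lines, from 0.11 in ΔC/fl, where 28.4 and 33.5 CPM became 29.9 and 37.3, to 1.90 in dm/-, where 13.4 and 8.06 CPM became 42.5 and 40.7. By line, dm/- alone passed (adjusted p = 0.0376), and this call was lost without any one of its 4 libraries (1.56 to 2.23) and in edgeR (1.95, adjusted p = 0.0516). In fl/fl Fzd2 went from 3.06 and 5.95 to 9.54 and 21.4 CPM (1.53, adjusted p = 0.131), and in D164A/fl from 2.55 and 5.89 to 14.1 and 17.7 CPM (1.76, adjusted p = 0.0826), both without overlap. The summed mesenchymal markers were higher after TGFβ in 6 lines, without overlap, for example from 7.15 to 8.27 CPM up to 105 to 368 CPM in dm/- and from 48.9 to 55.4 up to 405 to 841 CPM in fl/fl, and overlapped in dm/fl. Their part in the Fzd2 response was not tested.

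Fzd5, a receptor known from yolk sac angiogenesis and Paneth cell maturation, also moved in both directions. In ΔC/- it rose from 18.9 and 21.3 to 45.8 and 38.5 CPM (1.03, SE 0.30, adjusted p = 0.0249, limma), and in dm/fl it fell from 43.9 and 24.4 to 16.9 and 11.2 CPM (-1.20, SE 0.30, adjusted p = 0.0049). Neither pair of groups overlapped. The ΔC/- call was lost without any one of its 4 libraries (0.91 to 1.15), the dm/fl call without untreated replicate 1 (-0.79) or treated replicate 2 (-0.92), and both when the GC trend was removed (0.85 and -1.05). Part of the Fzd5 exons, 619 bases, lies opposite an antisense gene, and strand use in the counting is not stated in the sources used here.

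No call was made for Fzd3, Fzd4, Fzd6, Fzd8 or Fzd9 with TGFβ in any line by limma or edgeR. Some of their groups were nonetheless separate. Fzd4 in D164A/- went from 43.8 and 43.1 to 24.3 and 24.7 CPM, and Fzd8 in dm/fl from 21.3 and 18.7 to 13.2 and 10.2 CPM. Fzd3 in ΔC/- went from 7.65 and 10.2 to 21.5 and 18.7 CPM (1.10, adjusted p = 0.229, limma). Fzd6 in D164A/- went from 175 and 123 to 255 and 210 CPM (0.65, adjusted p = 0.471), its highest level in the series.

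**Figure D4:**
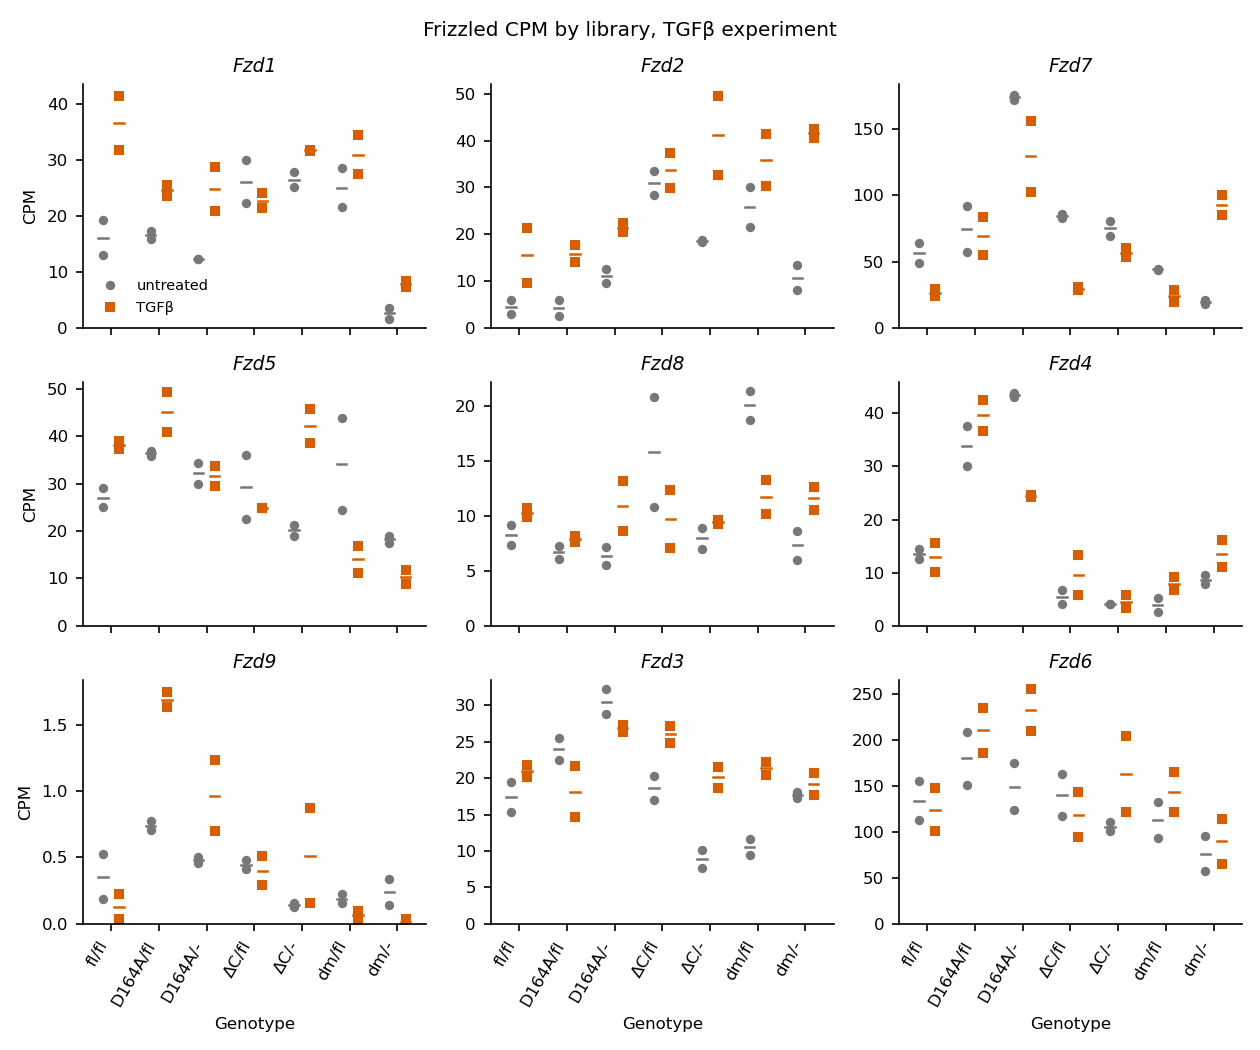
CPM of the 9 members above the filter in the TGFβ experiment, drawn as for Wnt3a (circles untreated, squares treated, dashes means, n = 2 each, linear axes). For Fzd7 the squares lie below the circles in fl/fl, D164A/-, ΔC/fl, ΔC/- and dm/fl and far above them in dm/-, at 85.0 and 99.8 CPM.

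**Figure D5:**
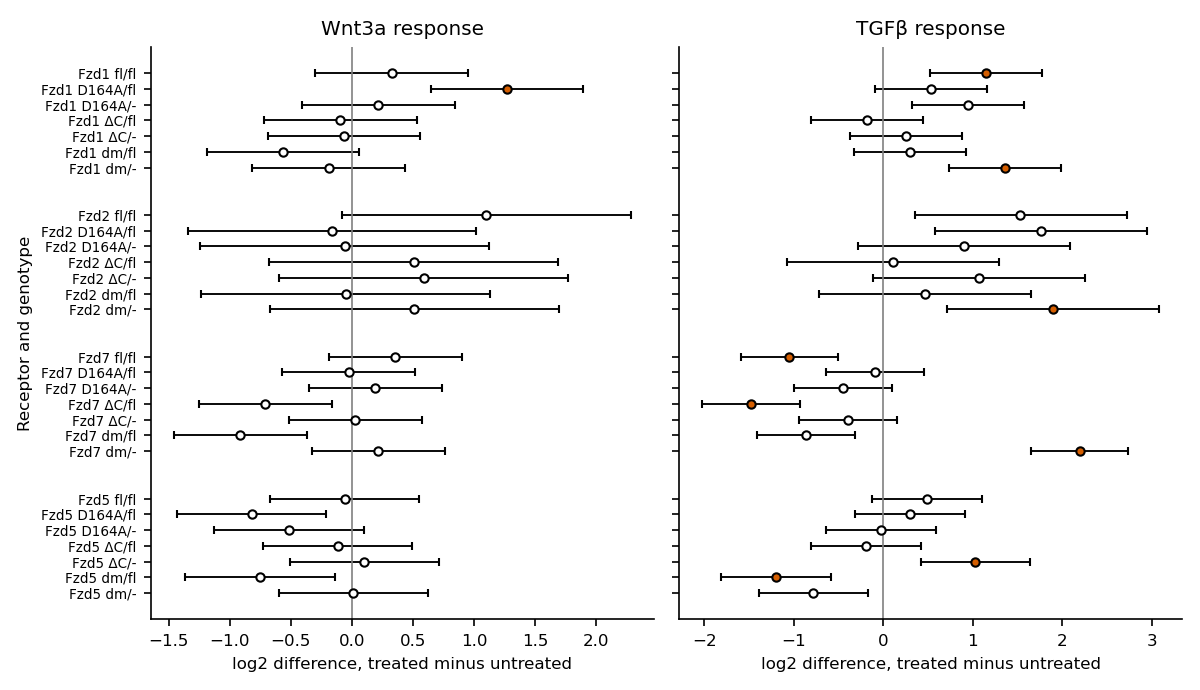
Log2 responses of Fzd1, Fzd2, Fzd7 and Fzd5 to Wnt3a and TGFβ in each line, with 95% confidence intervals from limma, where filled points passed both thresholds. The widest contrast is Fzd7 with TGFβ, from -1.48 in ΔC/fl to 2.19 in dm/-.

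Genes that work with or on Frizzled receptors were taken from a list of 44, of which 30 passed the filter. With Wnt3a 8 of 210 gene comparisons passed (3.81%, against 0.862% over all genes), 6 up and 2 down, and with TGFβ 26 of 210 (12.4%, against 6.35%), 14 up and 12 down. The median log2 response of the list lay between -0.10 and 0.20 over the lines with Wnt3a and between -0.23 and 0.21 with TGFβ, with medians of all genes between -0.03 and 0.07. Rnf43, a ubiquitin ligase that removes Frizzled from the surface, rose with Wnt3a in D164A/fl (2.64) and D164A/- (1.44), and fell with TGFβ in D164A/- (-1.18) and dm/- (-1.41). Shisa2, which retains immature Frizzled in the endoplasmic reticulum, fell with Wnt3a in D164A/fl (-3.27) and with TGFβ in ΔC/fl (-2.20). Averaged over genotypes, Rnf43 changed by 0.76 with Wnt3a (adjusted p = 3.92e-06, limma) and by -0.68 with TGFβ (adjusted p = 2.92e-06). Shisa2 changed by -0.72 with Wnt3a (adjusted p = 0.00105, limma). These mean responses were under the fold threshold, and that of Shisa2 to TGFβ was -0.21 (adjusted p = 0.304). The largest rises in single lines with TGFβ were those of the R-spondin receptor Lgr6 in fl/fl (4.2) and ΔC/fl (3.8). Next came Dkk2 in ΔC/fl (3.64) and Rspo1 in dm/fl (3.10), both low over all 56 libraries (means 0.53 and 0.33 CPM). Lgr6 rose with TGFβ in 6 lines, on average by 2.38 (adjusted p = 3.37e-12, limma), and Sfrp1, a secreted Wnt binder, fell on average by 1.16 (adjusted p = 1.84e-07), with calls in fl/fl, ΔC/- and dm/fl. The co-receptors Lrp5 and Lrp6 did not pass in the mean response to TGFβ (-0.38 and -0.23) or to Wnt3a (-0.24 and 0.03).

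Genes with the most similar pattern over the 28 condition means were found by Pearson correlation of log2 values, as a description, since the conditions share lines and experiments. For Fzd1 they were Synpo (r = 0.89), Sspn (0.88) and Zfp703 (0.85), and for Fzd2 Vasn (0.90), Ccdc102a (0.90) and Ano8 (0.88). For Fzd7 they were Pafah2 (0.88), Gab1 (0.88) and Acot1 (0.87), and for Fzd4 Spsb4 (0.91), Vldlr (0.91) and St6galnac2 (0.88). The closest genes to Fzd6 were Pomk (0.86), Nkd2 (0.84) and Zfp422 (0.84), and to Fzd8 Fat4 (0.86), Aff3 (0.82) and Slc1a3 (0.81). Fzd5 had the loosest matches, led by Cmtm8 (0.78), and those of Fzd3 were led by Hectd2 and Bmpr1a (0.87 each).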

How the data were processed

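Poly(A) RNA from 56 samples was sequenced as stranded single-end reads. The authors aligned reads with STAR to mm10, keeping unique hits, and counted RefSeq exons per gene with QuasR (per the labels and the study's methods, which also name edgeR for their tests). The deposited table holds a normalized signal in CPM per gene, after a scaling factor of 0.81 to 1.14 per library, and 100% of values came out as whole reads (tolerance 0.001 reads) when divided by the value of 1 read. All 56 value columns were matched to samples by name.

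The 13754 genes that reached 1 CPM in 2 or more libraries were tested with limma 3.58.1 in R 4.3.3 on log2(CPM + 1), with 28 conditions in one fit and trended variances. Log2 differences are on that scale and understate changes of low genes. P-values were adjusted by Benjamini-Hochberg over all genes of a comparison. A call needed an adjusted p of at most 0.05 and, except for F tests over genotypes, an absolute log2 difference of at least 1. Means are given ± SD. The main fit did not pair replicates across conditions.

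Alternatives were a pseudocount of 0.1, no filter, median-of-ratios scaling, edgeR 4.0.16 (quasi-likelihood) on the recovered reads, fits on only the samples compared, a replicate block, removal of the GC trend (lowess, span 0.3, 9513 genes), and each library left out in turn (56 fits). The crossed replicate block and RefSeq lengths of members with 1 exon were added after seeing the data. The code was tested on simulated data. The named genes are the 10 members, 44 genes acting with or on them, checks and marker genes, and the 3 genes most like each member. Members and lists were chosen with earlier results of these data known. Promoters came from RefSeq (GRCm38.p6) and exon lengths from GENCODE vM21. Confidence intervals come from limma and rest on the spread between replicate libraries, and the floor of 3 reads covers counting error only. The check of the TGFβ treatment is not reported here.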

Additional observations from a re-analysis of the deposited data

Results flagged for a closer look

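The TGFβ response of Fzd7 differed between the dm lines. It was 2.19 in dm/- and -0.87 in dm/fl, so that the log2 responses lay 3.06 apart (adjusted p = 7.88e-07, limma), with 2 of 2 treated libraries above both untreated ones in dm/- and 2 of 2 below them in dm/fl. Over all 7 genotypes the responses of Fzd7 to TGFβ differed (adjusted p = 1.64e-07, F test in limma), as did those of Fzd5 (adjusted p = 0.00206), which ranged from -1.20 in dm/fl to 1.03 in ΔC/-. With 2 libraries per condition, no library could be tested for standing apart within its condition.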

How the results depend on the processing

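No call changed direction. With Wnt3a, the 3 calls became 1 at a pseudocount of 0.1, 1 with median-of-ratios scaling, 0 in edgeR and 0 with only the samples compared, and 0 to 7 without single libraries (1 without untreated replicate 1 of D164A/fl, 0 without its treated replicate 1, 7 without untreated replicate 2 of dm/fl). Fitting only the samples compared also gave 1 in place of 8 calls with TGFβ, 4 in place of 10 between "/-" and "/fl" lines, 17 in place of 36 against fl/fl, 2 in place of 1 for differences of response and 6 in place of 2 for the spread of the TGFβ response, which leaves fewer libraries to estimate the spread. Without single libraries these counts ranged from 6 to 9, 6 to 11 (6 without untreated replicate 1 of dm/fl in the Wnt3a experiment), 31 to 37, 1 to 4 (4 without untreated replicate 2 of dm/fl in that experiment) and 2 to 3. The range was 0 to 4 for the spread of the Wnt3a response, 13 to 17 for that of untreated levels, 0 to 0 for the mean Wnt3a and 1 to 1 for the mean TGFβ response, where an adjusted p without a minimum fold gave 3. Of all 59 called changes, 27 were kept without any library, 53 in edgeR and 48 without the GC trend.

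Replicate numbers paired the samples within most lines but not between lines. Between treated and untreated libraries of a line, same-numbered deviations correlated at 0.32 to 0.94. The exceptions were dm/fl with Wnt3a (-0.10) and ΔC/- with TGFβ (-0.25). Between lines the correlation ran from -0.60 to 0.81. The main fit used no pairing. With a replicate block, calls numbered 3 with Wnt3a, 10 with TGFβ, 11 between "/-" and "/fl" and 37 against fl/fl, but 4 for differences of response (5 with the GC trend removed too), 3 for the spread of the Wnt3a response (2) and 6 for that of the TGFβ response (7). With crossed numbers, chosen after seeing the data, they were 10 with TGFβ, 12 between "/-" and "/fl" and 37 against fl/fl. Depth limits Fzd9 and Fzd10 and Fzd1 in dm/-, and 2 libraries per condition limit every call.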
